A study of Homo sapiens with 36 samples.

Results

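HepG2 cells treated for 24 h with docosahexaenoic acid and propionate together (DHA + PRO) were compared with vehicle control cells (Ctrl). The comparison rests on 6 of the 36 RNA-seq libraries of the series, namely replicates 1, 2 and 3 of DHA + PRO at 24 h and replicates 1, 2 and 3 of Ctrl at 24 h, chosen by their labels. HepG2 is a human cell line established from a liver tumour, DHA a long-chain omega-3 fatty acid, and PRO one of the short-chain fatty acids that gut bacteria make from fibre. The series also holds cells given DHA alone, PRO alone, protocatechuic acid (PCA, a phenolic acid) alone, or DHA with PCA, all at 6 h and 24 h. It addressed how these compounds, alone and together, alter transcription in liver cells.

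DHA was given at 50 µM as a complex with bovine serum albumin and PRO at 70 µM, both in serum-free medium. Ctrl cells received no compound but corresponding albumin or vehicle. Serum-free medium was common to all groups, and whether cells given PRO alone received albumin is not given in the sources used here. The groups compared here with DHA + PRO at 24 h are Ctrl, DHA alone (50 µM) and PRO alone (70 µM), and DHA + PRO and Ctrl at 6 h. DHA (50 µM) with PCA (20 µM) at 24 h is given for scale only. Each library was made from pooled RNA of replicate wells of 1 independent experiment, and the 3 libraries of a group come from 3 experiments on 1 tumour line. Total counts in the 17 other libraries of 24 h ran from 5617341 to 8657882 (median 6799496), whereas replicate 2 of DHA + PRO held 42326734 counts, 6.22 times that median. Replicate 2 of PRO stood apart in the counts of changed genes given below. All 13 hepatocyte and hepatoma markers, ALB and AFP among them, were detected. Their summed level was 74600 to 81248 CPM (counts scaled to a common library total) in Ctrl and 71134 to 72666 in DHA + PRO, and only TTR among them was called changed. The 4 endothelial markers summed to at most 1.21 CPM, with KDR at 0. The 6 fibroblast markers summed to 64.5 to 66.7 CPM in Ctrl and 56.9 to 76.2 in DHA + PRO, most of it ACTA2 (mean 40.8 and 51.9). Means of COL1A1 (2.73 and 0.941) and PDGFRB (19.4 and 13.3) were lower with DHA + PRO, none of the 5 tested was called by edgeR, and their median log2 fold change was −1.28. The 5 leukocyte markers summed to 2066 to 2291 CPM in Ctrl and 1626 to 2057 in DHA + PRO, nearly all of it LYZ, with PTPRC and CD163 at 0. The part of these marker levels in the results was not tested. In bulk RNA, fewer cells of a kind and less RNA per cell cannot be told apart.

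Cholesterol and fatty acid synthesis are controlled by the sterol regulatory element-binding proteins (SREBPs). These transcription factors are held in the endoplasmic reticulum, together with their escort SCAP, by INSIG proteins until they are released and cut. SREBP-2 mainly drives genes of cholesterol synthesis and LDL uptake, SREBP-1 mainly those of fatty acid synthesis, and polyunsaturated fatty acids are known to lower the activity of SREBP-1. NRF2 is a transcription factor that raises genes of antioxidant defence and detoxification through the antioxidant response element, and it is known to respond to oxidised lipids. Propionate is activated to propionyl-CoA and, in mitochondria, converted by way of methylmalonyl-CoA to succinyl-CoA.

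Promoters from the RefSeq table are shown for GPX2, the gene of lowest p among the 12 largest rises that held an antioxidant response element core, and for HMGCS1, which makes HMG-CoA in the mevalonate pathway. None of the 12 largest falls with an entry held that core or a sterol regulatory element core. Each sequence is the 250 bases before the start site on GRCh38.p14, read 5′ to 3′ on the gene's own strand, which is the minus strand for both genes. Capitals in GPX2 mark a CCAAT box (CCAAT) from 237 to 233 bases before the start and the antioxidant response element core TGACNNNGC from 122 to 114 bases before it, both on the opposite strand, and capitals in HMGCS1 mark 2 CCAAT boxes on the opposite strand, 155 to 151 and 100 to 96 bases before the start.
GPX2 (chr14:64942746-64942995): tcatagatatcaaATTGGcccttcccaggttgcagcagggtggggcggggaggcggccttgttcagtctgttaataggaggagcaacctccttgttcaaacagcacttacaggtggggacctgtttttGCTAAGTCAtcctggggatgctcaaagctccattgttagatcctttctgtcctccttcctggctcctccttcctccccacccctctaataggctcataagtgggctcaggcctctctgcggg
HMGCS1 (chr5:43313413-43313662): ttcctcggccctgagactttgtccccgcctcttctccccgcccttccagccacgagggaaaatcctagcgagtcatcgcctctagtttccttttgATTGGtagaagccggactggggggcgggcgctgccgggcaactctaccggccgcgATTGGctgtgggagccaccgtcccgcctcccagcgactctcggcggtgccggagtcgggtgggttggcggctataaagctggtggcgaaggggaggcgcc
Both strands were searched for these motifs and for the sterol regulatory element core TCACNCCAC from 250 bases before to 50 after each start, and the motifs do not overlap each other in the sequences shown. Of the 9763 tested genes with a promoter in the table, 37% held CCAAT, 15.2% the antioxidant response element core and 1.10% the sterol regulatory element core. Only 99 of the 135 genes called changed (73.3%) had an entry, so shares among them are incomplete, were not tested and are not read as results. Of the 37 induced genes with an entry, 51.4% held CCAAT, 13.5% the antioxidant response element core and 2.7% the sterol regulatory element core. Of the 62 repressed genes with an entry, 56.5%, 9.68% and 1.61% held them.

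After 24 h, DHA + PRO lowered most of the cholesterol synthesis pathway and much of fatty acid synthesis, and raised antioxidant and aldo-keto reductase genes. Of 11893 genes tested, 135 (1.14%) were called changed, 48 induced (0.404%) and 87 repressed (0.732%). A gene was called where edgeR's quasi-likelihood test, with the replicate number as a block, gave a Benjamini-Hochberg adjusted p of 0.05 or less and its average log2 CPM exceeded 0. All log2 fold changes below come from this fit unless another is named, and CPM are scaled by TMM. Without the replicate block 47 genes were called (12 induced and 35 repressed), all of them among the 135. Induced genes were 35.6% of the calls, and 48.6% of 399 calls with a GC-content offset and the block. The biological coefficient of variation was 0.0825 with the block and 0.105 without it. In 128 of the 135 genes (45 induced and 83 repressed) the 3 treated and the 3 control values did not overlap, as in 15.1% of all tested genes, and in all 135 the change had the same sign in each of the 3 experiments. The genes were called on these same libraries, so neither count is further support for the calls. The changes were mostly small. The median log2 fold change was 0.42 for the induced and −0.55 for the repressed genes, the extremes were 1.45 and −1.94, and only 4 induced and 6 repressed genes reached a size of 1. The median over all tested genes was 0.0012. The p-values rest on the spread left in the 18 libraries of 24 h after group and replicate number were fitted (10 residual degrees of freedom). An exact permutation test of 3 against 3 libraries could not have gone below 0.1 for a single gene.

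**Figure D1:**
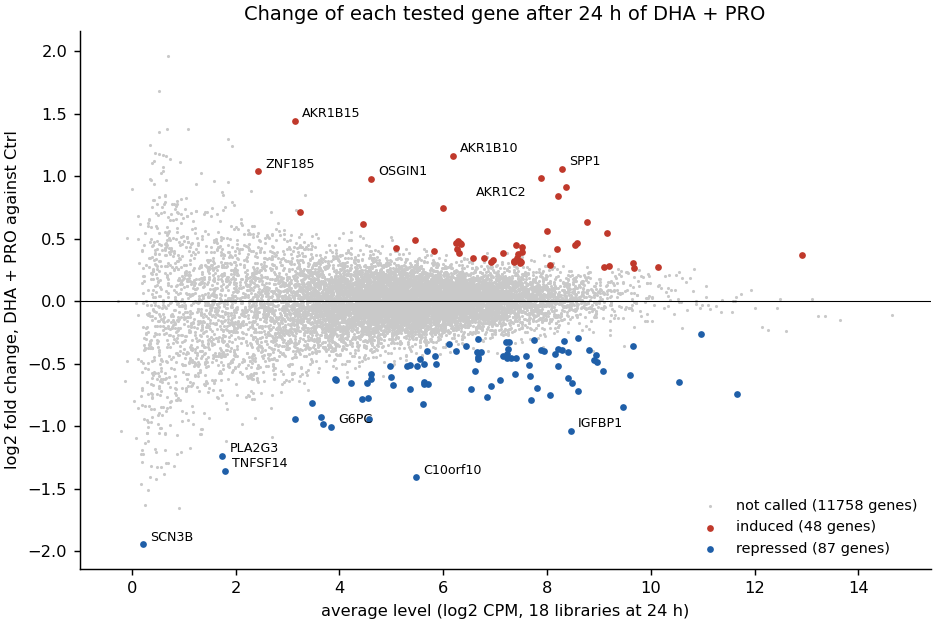
Each point is a tested gene, with its average level (log2 CPM over the 18 libraries of 24 h) on the x axis and its log2 fold change with DHA + PRO against Ctrl on the y axis; red points are the 48 induced and blue points the 87 repressed genes. Few called genes lie beyond a log2 fold change of 1 in either direction, and SCN3B, the largest fall, is at the low end of the expression range.

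Of the 24 tested genes that make cholesterol, 17 were repressed and 0 induced, against 0.732% and 0.404% of all genes. Their median log2 fold change was −0.45. Of the 10 in the mevalonate pathway, 7 were repressed (ACAT2, HMGCS1, MVK, MVD, IDI1 and FDPS among them), and of the 14 from squalene to cholesterol 10 were (FDFT1, SQLE, LSS, CYP51A1, TM7SF2, MSMO1, HSD17B7, C14orf1, SC5D and DHCR7). Without the replicate block 11 of the 24 were called, and without the deep replicate 2 of DHA + PRO 14 were, all repressed. PMVK, IDI2, GGPS1, LBR, NSDHL and EBP were among those not called. The study named several of these genes on the same samples, so their direction is not independent evidence.

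HMGCS1, on chromosome 5 of hg19 from 43287572 to 43313614, had the largest fall in the pathway. Its level was 871, 905 and 837 CPM in the 3 Ctrl libraries and 436, 474 and 540 CPM in the 3 DHA + PRO libraries. Every treated library lay well below every control library, with a log2 fold change of −0.85 (SE 0.11, adjusted p = 3.27e-05).

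Further along the mevalonate pathway, IDI1, which makes the allylic isoprene unit, fell from 292, 281 and 238 CPM to 161, 167 and 172 CPM (log2 fold change −0.69, SE 0.11). MVD, the decarboxylase before it, fell by 0.75 on the log2 scale (adjusted p = 0.00396), and its call was lost without replicate 1 of DHA + PRO.

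FDFT1, squalene synthase, which commits carbon to sterols, went from 930, 895 and 979 CPM to 582, 607 and 677 CPM. Its log2 fold change of −0.59 (SE 0.06, adjusted p = 8.66e-07) was the most significant among the sterol genes. The lanosterol demethylation enzymes CYP51A1 and MSMO1 changed by −0.60 and −0.61 on the log2 scale. SQLE, squalene epoxidase, a control point of the pathway, had a smaller log2 fold change of −0.39 (SE 0.07, adjusted p = 0.00271). It was at 493, 511 and 510 CPM in Ctrl and at 379, 395 and 385 CPM in DHA + PRO, so the groups were apart by several times their spread, although its call was lost without replicate 3 of Ctrl.

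LSS, lanosterol synthase, was the only called sterol gene whose groups overlapped. Its level was 80.4, 130 and 127 CPM in Ctrl and 51.3, 68.7 and 89.0 CPM in DHA + PRO. Replicate 1 was the lowest in both groups and the fall was seen in each experiment, which gave a log2 fold change of −0.70 with the block (adjusted p = 0.000406) and no call without it (adjusted p = 0.129). The calls of MVK, HSD17B7, SC5D and TM7SF2 were also lost without the block, and each was lost on leaving out at least 4 of the 6 libraries in turn. DHCR7, the last reductase, was lost only without the block.

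**Figure D2:**
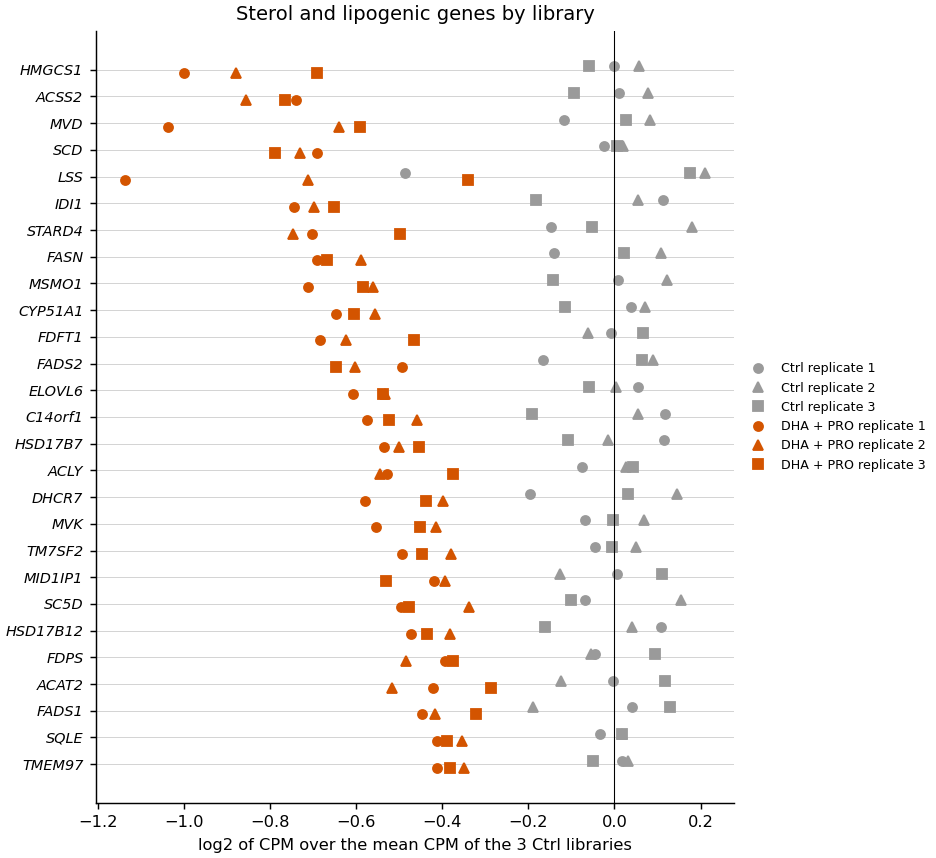
Each row is a called gene of sterol synthesis, fatty acid synthesis, desaturation and elongation or sterol traffic, apart from a few genes not reported here; the x axis is the log2 of a library's CPM over the mean CPM of the 3 Ctrl libraries, with Ctrl in grey, DHA + PRO in orange and the marker shape giving the replicate. In every row except LSS the orange points lie left of all grey points, with replicate 2 of DHA + PRO, the deep library, in among the others.

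Genes of fatty acid synthesis fell as a smaller set. Of 10 tested genes of de novo lipogenesis, 5 were repressed and 0 induced (median log2 fold change −0.35), and of 15 desaturases and elongases 5 were repressed (median −0.12), ELOVL6 being in both lists. Without the block 4 and 4 were called. Over all genes 0.732% were repressed with the block. SCD, the stearoyl-CoA desaturase that makes monounsaturated fatty acids, was the most abundant of them.

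SCD was at 4066, 4192 and 4153 CPM in Ctrl and at 2564, 2495 and 2394 CPM with DHA + PRO. The log2 fold change was −0.74 (SE 0.06, adjusted p = 7.81e-09), a change many times the spread within either group. ACSS2, which makes acetyl-CoA from acetate, had the largest fall of the lipogenic genes. It went from 273, 286 and 254 CPM to 162, 150 and 160 CPM (log2 fold change −0.79, SE 0.07, adjusted p = 2.64e-07). FASN, fatty acid synthase, went from 1681, 1998 and 1880 CPM to 1148, 1233 and 1167 CPM (−0.65, SE 0.12, adjusted p = 0.00256).

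ACLY, which supplies cytosolic acetyl-CoA from citrate, was at 551, 591 and 598 CPM in Ctrl and at 402, 397 and 447 CPM with DHA + PRO (log2 fold change −0.48, SE 0.06). MID1IP1, which helps acetyl-CoA carboxylase to polymerise, changed by −0.43, and its call did not survive the loss of the block or of any library. ACACA, acetyl-CoA carboxylase itself and the rate-limiting enzyme, was not called. It stood at 143, 161 and 157 CPM in Ctrl and at 118, 138 and 129 CPM in DHA + PRO, without overlap (log2 fold change −0.26, SE 0.08, adjusted p = 0.111), and was called when only these 6 libraries were fitted (adjusted p = 0.0241). In the main fit ACACA was called with DHA alone against Ctrl (−0.52, adjusted p = 0.000537) and with DHA + PRO against PRO alone (−0.33, adjusted p = 0.0328).

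Among the enzymes that lengthen and desaturate fatty acids, ELOVL6, which elongates palmitate, went from 123, 119 and 114 CPM to 78.0, 82.2 and 81.9 CPM (log2 fold change −0.56, SE 0.09, adjusted p = 0.000607). FADS1 and FADS2, the desaturases that make highly unsaturated fatty acids such as DHA itself, had log2 fold changes of −0.39 (SE 0.07) and −0.58 (SE 0.11). Both held under all 11 alternatives tried for single genes. HSD17B12, the ketoacyl-CoA reductase of elongation, changed by −0.42, and its call was lost under 5 of the 11, no block among them.

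Of the 15 tested genes of LDL uptake and sterol traffic (median log2 fold change −0.24), 4 were repressed, also without the block. Over all genes 0.732% were repressed with the block. STARD4, a cytosolic sterol carrier, had a log2 fold change of −0.66 (adjusted p = 0.0011, lost without replicate 2 of DHA + PRO) and TMEM97 one of −0.38.

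Of the 14 tested genes of SREBP processing, 1 was called, SREBF1 (7.14%, against 1.14% of all genes). SREBF1, which encodes SREBP-1, was at 161, 142 and 156 CPM in Ctrl and at 115, 93.7 and 78.2 CPM in DHA + PRO. The groups were apart, with a log2 fold change of −0.68 (SE 0.13, adjusted p = 0.00569), but the adjusted p was 0.0614 without the block, 0.0523 without replicate 3 of Ctrl and 0.0730 without replicate 3 of DHA + PRO. SREBF2, which encodes SREBP-2, had a log2 fold change of −0.20 with a 95% interval from −0.36 to −0.041 (adjusted p = 0.289). The escort SCAP (0.02) and the retention protein INSIG2 (−0.29, called at an adjusted p of 0.0252 when only these 6 libraries were fitted) were not called either, and INSIG1 is listed at 0 counts in all 6 libraries, a row that may be incomplete and gives no level for this gene. The other members lay between −0.41 and 0.09.

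Sterol efflux held a single call. Among 11 tested LXR targets and efflux genes (median log2 fold change −0.15), 1 was called (9.09%, against 1.14% of all genes). It was SMPDL3A, a phosphodiesterase, at 25.8, 29.4 and 29.1 CPM in Ctrl against 15.4, 18.2 and 15.8 CPM in DHA + PRO (−0.77, SE 0.13, adjusted p = 0.00176). ABCA1, the main cholesterol exporter, was at 220, 219 and 184 CPM in Ctrl and at 193, 199 and 194 CPM with DHA + PRO, so the ranges overlapped (−0.08, SE 0.08). The receptors NR1H2 and NR1H3 had log2 fold changes of 0.16 and −0.15, and MYLIP, a ubiquitin ligase, one of −0.41 (adjusted p = 0.409).

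Lists of fatty acid oxidation, storage and binding held 2 calls each, against 0.404% induced and 0.732% repressed over all genes. Of 31 tested PPAR alpha and oxidation genes 2 were induced (median log2 fold change 0.05). CREB3L3, a liver transcription factor of fasting metabolism, was at 51.0, 48.5 and 48.8 CPM in Ctrl and at 75.6, 95.1 and 78.6 CPM with DHA + PRO (0.75, SE 0.16, adjusted p = 0.0165, or 0.0610 without the block). ACADVL, the very long chain acyl-CoA dehydrogenase, changed by 0.33, and both calls were lost on leaving out most single libraries. Among 19 lipid droplet genes LPIN1, a phosphatidate phosphatase and regulator of lipid genes (−0.66, SE 0.11), and PNPLA3, a lipase-like protein (−0.52, SE 0.11), were repressed. ACSL3 (−0.52) and FABP1 (−0.36) were the 2 repressed genes of 18 for fatty acid binding and activation. FABP1 lost its call under 7 of 11 alternatives (adjusted p = 0.182 without the block) and PNPLA3 under 4 (adjusted p = 0.236 without the block), whereas ACSL3 and LPIN1 kept theirs. Of 30 genes of glycerolipid and phospholipid synthesis 0 were called.

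**Figure D3:**
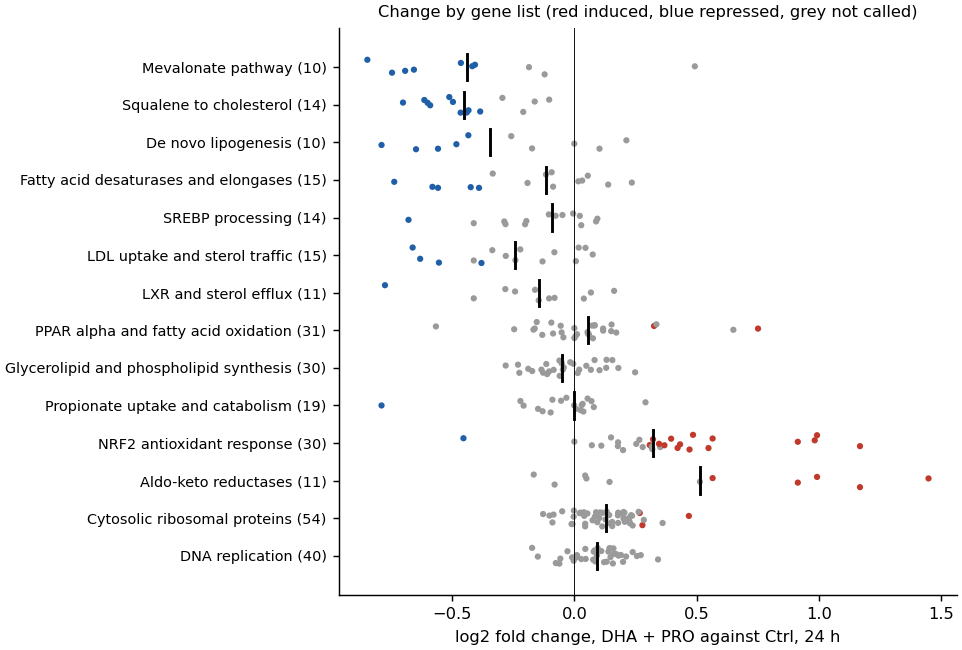
Each point is a tested gene placed by its log2 fold change with DHA + PRO against Ctrl at 24 h (x axis), grouped by gene list with the number tested in brackets; red is induced, blue repressed and grey not called, and black bars are list medians. The medians of the first 3 lists lie at −0.35 or below, those of the NRF2 and aldo-keto reductase lists, which share members, at 0.32 and 0.51, and those of the propionate and glycerolipid lists near 0.

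Among the enzymes that handle propionate, 1 of 19 tested genes was called (5.26%, against 1.14% of all genes). It was ACSS2, which is counted above and acts on acetate as well as propionate. The median log2 fold change of the list was −0.0013. The transporter SLC16A1 (0.07), both subunits of propionyl-CoA carboxylase, PCCA (0.03) and PCCB (0.04), the methylmalonyl-CoA mutase MUT (−0.05) and the mitochondrial acetate activator ACSS1 (0.29, adjusted p = 0.180, or 0.0474 when only these 6 libraries were fitted) were not called, and the remaining members lay between −0.22 and 0.08. Of 23 genes of branched-chain amino acid degradation and 17 histone deacetylases and sirtuins, 0 were called by edgeR in either list.

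On the induced side, NRF2 targets formed the largest group. Of 30 tested genes of the NRF2 list, 15 were induced and 1 repressed (median log2 fold change 0.32), against 0.404% and 0.732% of all genes. This list, like the others, was chosen with earlier results of these data known, so its share is not independent support. Without the block 7 were induced, and without replicate 2 of DHA + PRO 7 were. Among the 15 were AKR1B10, AKR1C1, AKR1C2, AKR1C3, NQO1, OSGIN1, HMOX1, TXNRD1, PRDX1, SQSTM1, TALDO1, FTL, ABCC3 and UGDH. Of 11 tested aldo-keto reductases, enzymes that reduce aldehydes and ketones including those from lipid peroxidation, 5 were induced (median 0.51), with and without the block. AKR1B10, AKR1C1, AKR1C2 and AKR1C3 are counted in both lists.

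AKR1B10, on chromosome 7 of hg19 from 134212344 to 134226166, was at 36.7, 46.1 and 52.6 CPM in Ctrl and at 101, 92.1 and 112 CPM in DHA + PRO. The lowest treated value exceeded the highest control value, with a log2 fold change of 1.17 (SE 0.10, adjusted p = 9.55e-08). Its neighbour AKR1B15, from 134233849 to 134264592, had the largest rise of all called genes, from 3.99, 4.18 and 5.51 CPM to 12.6, 12.4 and 12.5 CPM (1.45, SE 0.20, adjusted p = 7.27e-05). The 2 genes are near-identical copies, so reads of the more abundant AKR1B10 may be counted in AKR1B15 and their separate sizes are uncertain.

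AKR1C2 was at 146, 167 and 180 CPM in Ctrl and at 269, 316 and 406 CPM with DHA + PRO (log2 fold change 0.99, SE 0.11, adjusted p = 4.01e-06). AKR1C1 went from 201, 274 and 249 CPM to 365, 462 and 548 CPM (0.91, SE 0.11) and AKR1C3 from 198, 217 and 216 CPM to 285, 318 and 334 CPM (0.56, SE 0.07). Each group of 3 stood clear of its controls, and within both groups replicate 1 was the lowest for all 3 genes. These are also close paralogs in 1 cluster on chromosome 10, and reads could be shared among them.

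NQO1, a quinone reductase and classical NRF2 target, was at 456, 496 and 472 CPM in Ctrl and at 732, 670 and 681 CPM in DHA + PRO (log2 fold change 0.55, SE 0.07, adjusted p = 2.57e-05). GPX2, a glutathione peroxidase and the gene whose promoter with an antioxidant response element core is printed above, went from 344, 372 and 326 CPM to 545, 518 and 559 CPM (0.63, SE 0.08, adjusted p = 3.86e-05). Neither gene overlapped between the groups. OSGIN1, an oxidative stress response gene, was at 13.5, 14.03 and 21.5 CPM in Ctrl against 25.05, 31.6 and 39.6 CPM (0.98, SE 0.15). PIR, an iron-binding protein, rose by 0.71 from a low level, and its call was lost under 9 of the 11 alternatives.

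The other induced NRF2 genes changed less. HMOX1, heme oxygenase, went from 51.2, 70.2 and 68.9 CPM to 84.6, 97.8 and 83.3 CPM (log2 fold change 0.48, SE 0.09, adjusted p = 0.00568, or 0.0960 without the block). TXNRD1, thioredoxin reductase, had 0.40 (SE 0.07, adjusted p = 0.00396) and was called under all 11 alternatives tried for single genes. SQSTM1, ABCC3, UGDH, FTL, TALDO1 and PRDX1 had log2 fold changes from 0.31 to 0.47. All 6 calls were lost without the block, and each was lost under 3 to 6 of the 11 alternatives. The glutathione synthesis genes GCLC (0.32, adjusted p = 0.0813) and GCLM (0.35, adjusted p = 0.225) and NFE2L2, which encodes NRF2 (0.11), were not called. TXNIP, the thioredoxin inhibitor, was the repressed member (−0.45, SE 0.08, adjusted p = 0.00271), at 181, 195 and 199 CPM in Ctrl and 143, 148 and 129 CPM with DHA + PRO.

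**Figure D4:**
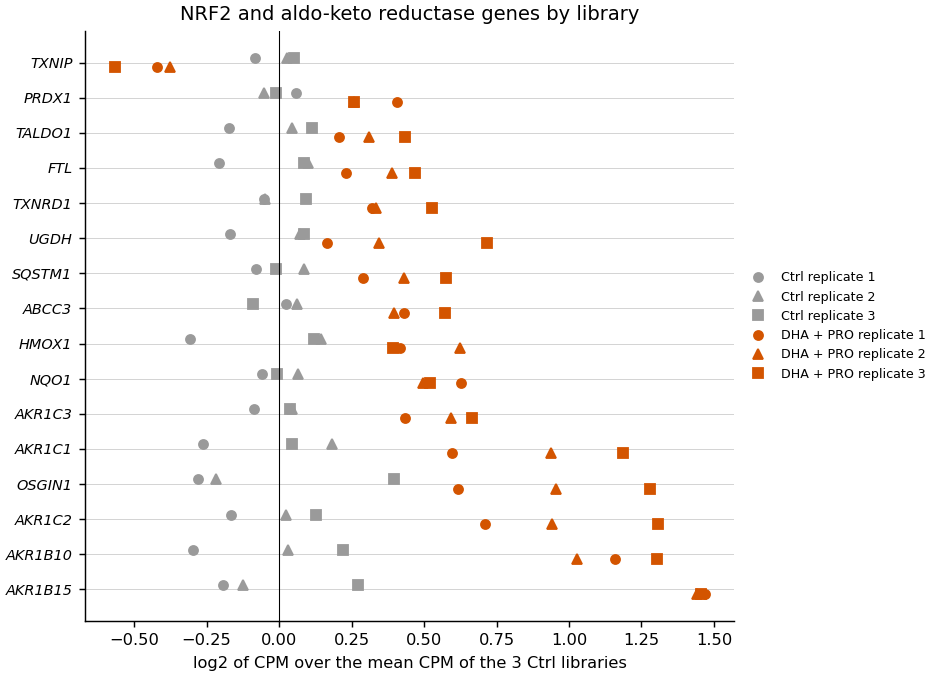
Each row is a called gene of the NRF2 or aldo-keto reductase lists, apart from any not reported here; the x axis is the log2 of a library's CPM over the mean CPM of the 3 Ctrl libraries, with Ctrl in grey, DHA + PRO in orange and the marker shape giving the replicate. Orange points lie right of all grey points in every row except TXNIP, and in OSGIN1 and the AKR1C genes replicate 1 is the lowest and replicate 3 the highest of the treated points.

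The most significant change of all was in SPP1, which encodes the secreted phosphoprotein osteopontin. SPP1, on chromosome 4 of hg19 from 88896802 to 88904563, was at 199, 220 and 223 CPM in Ctrl and at 421, 432 and 486 CPM in DHA + PRO. All treated libraries stood far above all controls, with a fold of 2.09 or a log2 fold change of 1.06 (SE 0.07, adjusted p = 3.21e-09), and the call was kept under all 11 alternatives. Among the other largest rises, CPLX2, a synaptic vesicle protein, went from 179, 256 and 241 CPM to 377, 379 and 452 CPM (0.84, SE 0.09, adjusted p = 3.90e-06). ZNF185 (1.04, SE 0.24) and REEP2 (0.62, SE 0.14) were at most 8.09 and 28.7 CPM in any of the 6 libraries. Their calls were lost under 7 and 6 of the 11 alternatives, no block among them, and that of ZNF185 without any single library.

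The largest falls outside lipid synthesis were in genes of several kinds. SCN3B, a sodium channel subunit, had a log2 fold change of −1.94 (SE 0.43, adjusted p = 0.0185) at 1.83, 1.79 and 1.48 CPM in Ctrl and 0.332, 0.546 and 0.284 CPM in DHA + PRO, and its call was lost without any single library. C10orf10 fell from 55.2, 66.6 and 83.3 CPM to 15.3, 38.2 and 26.8 CPM (−1.41, SE 0.18, adjusted p = 2.55e-05). The groups were far apart, but with replicate 1 lowest in both groups the adjusted p was 0.161 without the block. IGFBP1, an insulin-like growth factor binding protein lowered by insulin, showed the same order, at 459, 505 and 539 CPM in Ctrl and 153, 338 and 282 CPM with DHA + PRO (−1.04, SE 0.16, adjusted p = 0.000404, or 0.271 without the block).

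G6PC, glucose-6-phosphatase, the last step of glucose release, was at 18.8, 16.7 and 21.5 CPM in Ctrl and at 6.80, 12.3 and 9.37 CPM in DHA + PRO. It was the only called member of 26 genes of gluconeogenesis, glycolysis and glycogen (log2 fold change −1.003, SE 0.22, adjusted p = 0.0163), and the call was lost under 6 of 11 alternatives. FST, follistatin, an activin antagonist, went from 54.9, 73.9 and 69.97 CPM to 25.5, 46.7 and 40.7 CPM (−0.82, SE 0.10, adjusted p = 2.64e-05, or 0.179 without the block). AGR2, a protein disulfide isomerase, fell by 0.98 on the log2 scale (SE 0.14, adjusted p = 0.000252) and kept its call under all 11 alternatives.

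TNFSF14 (−1.35), PLA2G3 (−1.23), CTHRC1 (−0.94) and P2RY8 (−0.92) completed the largest falls, all at 18.96 CPM or less in every one of the 6 libraries. The calls of TNFSF14, PLA2G3 and CTHRC1 were lost under 6, 7 and 6 of the 11 alternatives, no block among them, and that of P2RY8 without replicate 2 of DHA + PRO. The log2 fold change of TNFSF14 was −0.94 without replicate 1 of Ctrl. CCDC152 fell by 0.94 (SE 0.13, adjusted p = 7.49e-05). It lies on chromosome 5 of hg19 from 42756920 to 42802539 on the plus strand and overlaps the end of SEPP1, the selenium carrier selenoprotein P, from 42799982 to 42812024 on the minus strand. SEPP1 itself changed by −0.43 (SE 0.07, adjusted p = 0.000602, or 0.382 without the block), and since the library kit does not mark strand, reads of the 2 genes cannot be told apart where they overlap. NR0B2, the bile acid-induced corepressor SHP, had a log2 fold change of −0.46 with overlapping groups (adjusted p = 0.0199, or 0.606 without the block).

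Beyond lipids and redox, calls were spread over several lists, against 0.404% induced and 0.732% repressed over all genes. Of 54 cytosolic ribosomal protein genes, 3 were induced, RPL41, RPL11 and RPL19, with log2 fold changes of 0.27 to 0.47 and a list median of 0.13. Their calls were lost under 3, 7 and 7 of 11 alternatives, no block among them. Of 40 DNA replication genes, 36 of mitosis, 34 proteasome subunits, 25 serine and one-carbon enzymes, 29 complement and coagulation genes and 12 metallothioneins and zinc response genes, 0 were called by edgeR. The redox lists beside NRF2 held 1 induced (GPX2) and 1 repressed gene (SEPP1) of 22 glutathione transferases and peroxidases and 2 induced of 15 genes of NADPH supply (TALDO1 among them), and NQO1 was the 1 induced of 7 aryl hydrocarbon receptor genes. NR0B2 was the 1 repressed of 20 bile acid genes. Single members were called in the lists for apolipoproteins (C19orf80, −0.65), plasma carriers (TTR, −0.40), ATF4 and ER stress (DNAJB9, −0.58) and nuclear respiratory chain subunits (UQCRB, 0.32). These 4 calls were lost under 6, 4, 7 and 8 of 11 alternatives, no block among them. LYZ, lysozyme, on the leukocyte marker list, had a mean of 2163 CPM in Ctrl and 1813 CPM with DHA + PRO (−0.26, adjusted p = 0.0430, or 0.554 without the block), and its call was lost under 6 of 11 alternatives.

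To see what PRO added, DHA + PRO was tested directly against DHA alone. A single gene of 11893 (0.00841%) passed, SPP1, and 912 had an unadjusted p under 0.05. SPP1 was at 305, 339 and 332 CPM with DHA alone and at 266, 264 and 328 CPM with PRO alone, against 421, 432 and 486 CPM with both. All 3 DHA + PRO libraries exceeded all 3 of either single treatment, with a log2 difference from DHA of 0.45 (SE 0.07, adjusted p = 0.0206). The call was lost on leaving out any of the 6 libraries of this comparison, and without the block 0 genes passed (527 at an unadjusted p under 0.05). DESeq2's Wald test called 27 genes and a GC-content offset with the block 66.

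Against Ctrl, which all 3 comparisons share, the log2 fold change of SPP1 was 0.61 with DHA (adjusted p = 4.97e-05), 0.42 with PRO (adjusted p = 0.0695) and 1.06 with DHA + PRO. The interaction, the part of the DHA + PRO effect beyond the sum of the single effects, was 0.04 on the log2 scale (SE 0.10, adjusted p = 0.946). The next 4 genes by p in the comparison with DHA were ORM1 (0.41), COX7B (0.41), TAF10 (0.53) and ARRB2 (0.46), with adjusted p from 0.0782 to 0.139.

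No member of any gene list was called against DHA by edgeR, while the members DESeq2's Wald test called included ORM1 (adjusted p = 0.0011), an acute-phase protein, COX7B (adjusted p = 0.00486), a respiratory chain subunit, MKI67, RPL11, APOA2, RPS24 and, in the NRF2 list, TXNIP (−0.33, adjusted p = 0.0450). In the 10 mevalonate genes the log2 difference from DHA ran from −0.28 to 0.10 and was above 0 in 2, and in the 14 genes from squalene to cholesterol it ran from −0.24 to 0.13 and was above 0 in 2. For HMGCS1 it was −0.28 (SE 0.11, adjusted p = 0.553), for SCD 0.02 (SE 0.05) and for ACSS2 0.08 (SE 0.07). ACACA stood at 108, 105 and 109 CPM with DHA alone, below all 3 DHA + PRO libraries, and the difference of 0.26 (SE 0.08) did not pass. In the 30 NRF2 genes the difference from DHA ran from −0.33 to 0.36 and was above 0 in 21. For GPX2 it was 0.26 (SE 0.08, adjusted p = 0.430).

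The single treatments give the scale for these values. In the same fit DHA alone changed 77 genes against Ctrl (0.647%, 19 induced and 58 repressed), and PRO alone 0 (lowest adjusted p = 0.0695, with 1181 genes under an unadjusted p of 0.05). Of the 135 genes called with DHA + PRO, 53 were also called with DHA alone. DHA with PCA, a treatment without PRO, changed 130 of 11893 genes against the same Ctrl (46 induced and 84 repressed). A larger count than with DHA alone was thus not particular to PRO. The 0 for PRO rested on its replicate 2. Without that library 807 genes were called (321 induced and 486 repressed), without any other single library of PRO or Ctrl 0 were, and DESeq2's Wald test on all libraries called 18. DHA alone repressed 5 of the 10 mevalonate genes, 8 of the 14 from squalene to cholesterol and 5 of the 10 lipogenic genes, and induced 8 of the 30 NRF2 genes, where DHA + PRO gave 7, 10, 5 and 15. Other lists went the other way. DHA alone induced 6 of the 11 aldo-keto reductases and 2 of the 12 metallothionein and zinc response genes, where DHA + PRO gave 5 and 0. Since edgeR called the difference of the treatments in none of these genes, these counts do not show that the lists responded differently.

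**Figure D5:**
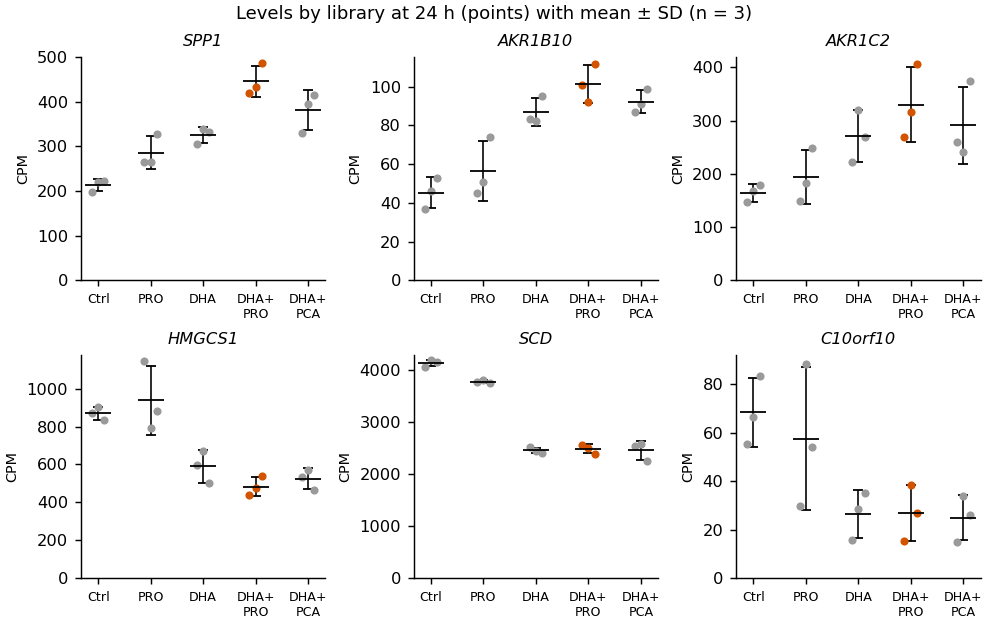
CPM of 6 genes (y axes, from 0) in the 3 libraries each of Ctrl, PRO, DHA, DHA + PRO and DHA + PCA at 24 h, with orange points for DHA + PRO, grey points for the others, and bars giving mean ± SD (n = 3). PCA alone is not drawn. In SPP1 the DHA + PRO libraries (421 to 486 CPM) lie above those of Ctrl, PRO and DHA, whereas in SCD their range (2394 to 2564 CPM) spans that of the DHA libraries (2413 to 2516 CPM).

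Against PRO alone, DHA + PRO changed 99 genes (0.832%, 26 induced and 73 repressed). The most significant were SCD (log2 difference −0.61, SE 0.06, adjusted p = 8.53e-07), ACSS2 (−0.70), FDFT1 (−0.53), SPP1 (0.64) and AKR1B10 (0.86). SCD was at 3769, 3818 and 3757 CPM with PRO alone, above every DHA + PRO library. The count depended strongly on 1 library. Without replicate 2 of PRO it was 1464, on leaving out other single libraries it ran from 37 to 141, and without the block it was 27.

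By edgeR the interaction of DHA and PRO was called in 0 genes of 11893 (0%). The lowest adjusted p was 0.217, and 991 genes had an unadjusted p under 0.05. DESeq2's Wald test called 2 genes, RNF138 (adjusted p = 0.0123) and MICU3 (adjusted p = 0.0431). The lowest p by edgeR were those of RNF138 (−1.22, SE 0.23) and MICU3 (−1.87, SE 0.37), followed by MZT1 (−0.96), TMOD3 (−0.61) and SPTSSA (−1.21). RNF138, a ubiquitin ligase, was at 18.6, 25.2 and 15.7 CPM in Ctrl, 38.7, 32.96 and 21.6 CPM with DHA, 49.5, 33.8 and 28.3 CPM with PRO and 24.0, 23.4 and 26.4 CPM with DHA + PRO. The combined treatment thus lay near Ctrl while both single treatments were higher in most libraries, and MICU3 and TMOD3 had the same order. All were picked by their interaction p and edgeR called none, so this order is no support for an interaction. Without replicate 2 of PRO 308 genes were called for the interaction, and without replicate 3 of DHA + PRO 12 were, these 5 genes included in both cases.

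At 6 h, DHA + PRO changed 13 of 11872 genes against the Ctrl of 6 h (0.11%, 4 induced and 9 repressed). The genes named here were chosen after their values were seen. The sterol genes HMGCS1 (log2 fold change −0.80), IDI1 (−0.76), SQLE (−0.58), CYP51A1 (−0.48), MSMO1 (−0.76) and STARD4 (−0.85) were already repressed, and BHLHE40 (−0.89) with them. The 4 induced genes were the metallothioneins MT1E, MT1X and MT2A (0.65 to 0.87) and HSPA1L (1.03).

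The difference of the effects at 24 h and 6 h, fitted over all 36 libraries, was called in 10 of 12046 genes (0.083%), with 689 under an unadjusted p of 0.05, and without the block in 0 (310). None of these sterol genes was among the 10. HMGCS1 had a log2 difference of −0.06 between the times (SE 0.15). SPP1 had a log2 fold change of 0.16 (SE 0.07) at 6 h and 1.06 (SE 0.07) at 24 h, a difference of 0.88 (SE 0.10, adjusted p = 5.83e-06). SCD changed by −0.27 at 6 h and −0.74 at 24 h, FST by −0.0013 and −0.82, CTGF, a matricellular growth factor modulator, by −0.16 and −0.71, and AKR1B10 by 0.36 and 1.17. The count of 10 ran from 2 to 39 on leaving out single libraries, and it was 2 without replicate 1 of Ctrl at 24 h or replicate 1 of DHA + PRO at 24 h, and 39 without replicate 1 of DHA + PRO at 6 h.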

How the data were processed

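RNA was sequenced with a TruSeq version 2 kit, which does not mark strand. The authors aligned reads with STAR to hg19 (GRCh37) and counted them per RefSeq gene with the iRNA-seq pipeline; the deposited table holds raw counts of 18932 genes in 36 samples and a counted length per gene, an other value that was not used in any test. Versions of these tools are not given in the sources used here.

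From the counts, the 18 libraries of 24 h were fitted together in edgeR 4.0.16 (R 4.3.3) with group and replicate number as terms, after filterByExpr (minimum count 10) and TMM scaling. Contrasts were tested by the quasi-likelihood F test, two-sided, with Benjamini-Hochberg adjustment over all genes tested, and called where the adjusted p was 0.05 or less and the average log2 CPM exceeded 0. The SE of a log2 fold change was its size over the root of F. The difference between times was fitted on all 36 libraries with the replicate number within each time. Replicate numbers were taken to mark the experiment: deviations of same-numbered DHA + PRO and Ctrl libraries correlated at 0.226, 0.100 and 0.183, and over all pairs of 24 h groups such correlations averaged 0.153, with a lowest value of −0.182. Scripts were tested on simulated data.

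Genes named are 14 genes the study names, the 12 largest non-overlapping rises and falls, called members of the gene lists, core uncalled members of the propionate, SREBP and efflux lists, and the 5 genes of lowest p in each direct comparison. The members and lists were chosen with earlier results of these data known. GCLC, GCLM, NFE2L2, the uncalled sterol genes and the genes of 6 h were chosen after their values were seen. Alternatives were no block, only the groups compared, DESeq2 1.42.0 size factors and Wald test, no filter, other CPM limits, a GC-content offset, replicate 2 of DHA + PRO thinned to 6800449 counts, and each library left out. Single genes were followed under 11 alternatives, which left out the no-filter, CPM-limit and GC-content fits. List counts under alternatives and the refits of PRO against Ctrl were added after seeing the data. Promoters were matched by symbol to a RefSeq table of GRCh38.p14, with an entry for 9763 of the 11893 genes (82.1%). A few genes are counted in the lists but are not reported here by name.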

Additional observations from a re-analysis of the deposited data

Results flagged for a closer look

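For 10 genes the effect of DHA + PRO at 24 h differed from that at 6 h by the test of the difference itself (edgeR's quasi-likelihood test with the replicate block within each time, Benjamini-Hochberg adjusted p over 12046 genes). The log2 difference, 24 h minus 6 h, was 0.884 for SPP1 (SE 0.10, adjusted p = 5.83e-06), −0.482 for SCD (SE 0.08, adjusted p = 0.0057), −0.838 for FST (adjusted p = 0.00772), 0.792 for AKR1B10 (adjusted p = 0.00772) and −0.568 for CTGF (adjusted p = 0.0139). It was 1.23 for AKR1B15 (adjusted p = 0.0161), and −0.961 for FUT6, 0.471 for NQO1, −1.19 for C10orf10 and 0.667 for AKR1C2 (adjusted p = 0.0291 for each). Without the replicate block none of these differences was called.

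SPP1 also differed between DHA + PRO and DHA alone at 24 h, by 0.454 on the log2 scale (adjusted p = 0.0206 by edgeR), and all 3 DHA + PRO libraries were higher than all 3 DHA libraries. The call was lost without the replicate block (adjusted p = 0.610) and on leaving out any of the 6 libraries (adjusted p = 0.0655 to 0.228).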

How the results depend on the processing

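For DHA + PRO against Ctrl at 24 h, the count of 135 changed genes was 47 with no replicate block, 395 (48.1% induced) when only the 6 libraries compared were fitted, and 399 with a GC-content offset and the replicate block. It ran from 55 to 102 on leaving out single libraries, and was 55 without replicate 1 and 65 without replicate 3 of Ctrl and 62, 60 and 85 without replicates 1, 2 and 3 of DHA + PRO. The count was 135 with DESeq2 size factors, 180 by the Wald test, 197 with no filter, 122 with the deep library thinned (119 of them among the 135) and 132 with a limit of average log2 CPM of 2. Of the 82 named genes called, 36 were called under all 11 alternatives, and 41 lost the call with no replicate block, 6 of them only there. These 11 did not include the GC-content offset, the fit with no filter or the other CPM limits. SCAP, PCCA, PCCB and MUT, which were not called, changed sign in places on leaving out single libraries (log2 fold changes −0.0244 to 0.0703, −0.0731 to 0.130, −0.0414 to 0.109 and −0.101 to 0.0095). The causes were not tested.

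Against DHA, the single call became 0 with no replicate block, 27 by the Wald test, 14 with no filter, 66 with the GC-content offset, and 0 to 2 on leaving out single libraries. It was 2 without replicate 1 of DHA and 0 without any other single library. Against PRO, 99 became 27 with no replicate block, 174 by the Wald test, 340 with no filter, 181 with the GC-content offset, and 37 to 1464 on leaving out libraries, with 49 and 56 without replicates 1 and 3 of PRO and 37 and 47 without replicates 1 and 2 of DHA + PRO. The interaction count of 0 stayed 0 with no replicate block (595 at an unadjusted p under 0.05) and was 2 by the Wald test, 46 with no filter, 11 with the GC-content offset and 0 to 308 on leaving out libraries. The difference between times, 10 genes, was 0 with no replicate block (310 at an unadjusted p under 0.05), 14 by the Wald test and 2 to 39 on leaving out libraries. It was 4 and 3 without replicates 1 and 3 of Ctrl at 6 h, 6 without replicate 2 of DHA + PRO at 6 h, 6 without replicate 3 of Ctrl at 24 h and 5 without the deep library.

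Outside the deep library, totals of 5617341 to 8657882 counts leave genes near 1 CPM resting on few counts, and changes of low genes such as SCN3B were not firmly measured.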
